A study of Mus musculus with 4 samples.

Results

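Early erythroid surface and enzyme genes were followed as a set of 10 among the 27998 genes counted in sorted mouse bone marrow progenitors: the blood group genes Rhd and Ermap, the claudin gene Cldn13, the erythropoietin receptor gene Epor, the water channel gene Aqp1, Tspo2, Mfsd2b, the carbonic anhydrase genes Car1 and Car2, and Prss50. All 10 were found by their symbols. They were chosen by gene levels measured in these same libraries, and it is not recorded whether those were levels across cell types, between genotypes or both, so their levels across cell types are given as a description without a test, and the genotype p-values come from fits over the whole gene table and are no independent evidence for the set. The cells were live LSK cells (lineage-negative, Sca1-positive, cKit-positive), a marrow fraction that holds stem cells and multipotent progenitors. Control mice were Nup358 fl/fl (named wild-type in the labels). Knockout mice, called Nup358 knockout, were Nup358 fl/fl with R26-CreERT2, a Cre that tamoxifen switches on in every tissue and that is not limited to blood cells. Mice of 9 to 12 weeks received tamoxifen on 3 consecutive days, and knockout marrow was studied 5 days after the first injection. Each genotype had 2 libraries, each a pool of 3 marrows, so that 4 libraries stood for 6 mice per genotype and p-values measure the spread between pools.

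Red cells arise from megakaryocyte and erythroid primed progenitors, in which the transcription factors GATA1 and KLF1 switch on the erythroid programme. Erythropoietin then acts through its receptor to keep the committed precursors alive, and genes for blood group antigens, membrane channels, carbonic anhydrase, heme synthesis and globin rise at different steps of that path. An LSK sort takes most cells before this path begins, so that only a small fraction of its cells is in view here.

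Rhd, Ermap and Mfsd2b were called lower in knockout erythroid cells by the test below, and Epor was lower there but not called. The promoters of these 4 genes are shown as examples. Each runs 5′ to 3′ in the direction of transcription, from 250 bases before to 50 bases after the start site, as given by RefSeq on GRCm38.p6. Capitals mark letters that match AGATAA or TGATAA, bound by GATA factors, or CCNCNCCC, the CACCC box bound by KLF factors, on either strand. The windows are chr4:134864286-134864585 on the plus strand for Rhd, chr4:119189946-119190245 on the minus strand for Ermap, chr12:4874310-4874609 on the minus strand for Mfsd2b and chr9:21963527-21963826 on the minus strand for Epor.
Rhd: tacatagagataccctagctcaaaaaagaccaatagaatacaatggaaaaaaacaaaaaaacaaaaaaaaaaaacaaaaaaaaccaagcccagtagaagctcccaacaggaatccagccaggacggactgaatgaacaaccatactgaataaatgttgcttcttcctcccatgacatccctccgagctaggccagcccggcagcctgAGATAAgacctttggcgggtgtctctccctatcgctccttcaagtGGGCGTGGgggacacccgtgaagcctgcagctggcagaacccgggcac
Ermap: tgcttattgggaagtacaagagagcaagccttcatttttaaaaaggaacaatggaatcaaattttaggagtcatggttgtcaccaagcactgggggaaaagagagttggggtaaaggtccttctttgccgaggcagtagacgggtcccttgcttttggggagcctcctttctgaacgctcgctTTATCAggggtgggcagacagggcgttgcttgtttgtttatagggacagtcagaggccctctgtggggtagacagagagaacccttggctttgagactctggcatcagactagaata
Mfsd2b: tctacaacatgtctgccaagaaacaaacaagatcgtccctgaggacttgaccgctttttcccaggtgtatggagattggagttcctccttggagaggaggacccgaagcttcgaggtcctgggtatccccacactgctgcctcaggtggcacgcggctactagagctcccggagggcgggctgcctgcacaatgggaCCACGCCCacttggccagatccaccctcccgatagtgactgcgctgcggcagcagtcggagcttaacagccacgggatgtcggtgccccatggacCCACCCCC
Epor: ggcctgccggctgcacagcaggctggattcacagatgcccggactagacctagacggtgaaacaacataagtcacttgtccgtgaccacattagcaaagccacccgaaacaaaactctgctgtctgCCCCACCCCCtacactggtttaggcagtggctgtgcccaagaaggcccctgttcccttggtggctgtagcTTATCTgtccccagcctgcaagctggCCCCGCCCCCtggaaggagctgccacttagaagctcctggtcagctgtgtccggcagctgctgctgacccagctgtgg
Rhd held AGATAA 43 bases before its start, and Ermap held TGATAA, on the opposite strand, 67 bases before its start. Epor held AGATAA, also on the opposite strand, 54 bases before its start, with 2 pairs of overlapping CACCC matches. Mfsd2b held a CACCC match 53 bases before its start and no GATA match. Of the 10 genes, 7 had promoter sequence at hand (8 promoters, since Prss50 has 2), and 3 of the 7 held AGATAA or TGATAA, which 18.6% of all 32851 promoters of this length hold. A CACCC match was found in 5 of the 7 (Aqp1, Epor, Mfsd2b, Rhd, Tspo2) and in 49.5% of all promoters, and both kinds in Epor and Rhd and in 5.73% of all promoters. Prss50, also called lower, held no match of either kind in its 2 promoters, while Aqp1 and Tspo2, with CACCC matches, were not called. Whether matches go with the genotype effect was not tested. A match describes letters only and not a bound site.

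All 10 are protein-coding genes of GRCm38. The carbonic anhydrase genes lie near each other on chromosome 3, with Car1 at 14766216 to 14808368 on the minus strand and Car2 at 14886273 to 14900770 on the plus strand. Car1 spans the processed pseudogene Gm16399 on the same strand without sharing an exon, and none of the other 9 overlaps another gene. Rhd (134864536 to 134896172) and Ermap (119175457 to 119190011) lie on chromosome 4, Epor (21958897 to 21963506) and Prss50 (110857967 to 110864629) on chromosome 9, Cldn13 on chromosome 5 (134914249 to 134915526), Aqp1 on chromosome 6 (55336432 to 55348555), Mfsd2b on chromosome 12 (4862440 to 4874359) and Tspo2 on chromosome 17 (48447907 to 48451522).

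RNA was counted by its 3′ ends, with a unique molecular identifier (UMI) for each captured molecule, so that levels are UMIs per 1000000 UMIs of a group of cells (CPM) and are not divided by gene length. Of 25242 barcodes, 24973 were kept because they had at least 200 detected genes and mitochondrial UMIs of at most 10%, with 25111828 to 60330267 UMIs per library. A total of 6680 barcode sequences occurred in 2 or more libraries. Barcodes with 3 times or more UMIs in another library, called copied barcodes here, made up 14.8% and 81.8% of the barcodes of control replicates 1 and 2 and 65.3% and 18.8% of those of knockout replicates 1 and 2, but held only 1.61% to 24.7% of the UMIs. The main results are therefore given with and without them. Nup358 itself (gene symbol Ranbp2) was at 127 and 106 CPM in the control and 122 and 126 in the knockout libraries, which checks nothing, since the deleted exon 2 lies outside the counted 3′ ends. The sorted receptors were present in all 4 libraries, with Ly6a at 135 to 308 and Kit at 73.5 to 96.4 CPM.

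Cells were assigned to types by marker genes, none of them among the 10 described here. A cell was erythroid-gated when it held at least 2 of Klf1, Gata1, Gfi1b, Blvrb, Icam4, Rhag and Sphk1 and more of these than of any other type's markers. This gave 245 and 98 erythroid-gated cells in the control and 79 and 171 in the knockout libraries, of which 232, 52, 58 and 160 were not copied barcodes. A further 183, 61, 101 and 207 cells with at least 2 erythroid markers fell in a tie for the most markers and were left out of the gate. Another 276, 91, 164 and 278 such cells held more markers of another type and went to its gate. The part of these losses in the results was not tested. Of the gated cells, 84, 47, 26 and 47 stood at exactly 2 markers.

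In the control libraries, most of the RNA of 7 of the genes came from these few cells. Throughout, values of the 4 libraries are given for control replicates 1 and 2 and then knockout replicates 1 and 2. Erythroid-gated cells held 3.09%, 3.39%, 4.36% and 6.13% of all UMIs but 82.5%, 75.5%, 71.6% and 85.1% of those of Car1, the red cell carbonic anhydrase. For Tspo2, which codes for a cholesterol-binding protein of erythroid cells, the shares were 80.7%, 80.6%, 64.7% and 76.1%. The share was also above 60% in the control libraries for Rhd, Cldn13, Ermap and Prss50, at 88.3% and 93.4% for Rhd, 93.3% and 86.9% for Cldn13 and 86.5% and 72.8% for Ermap, and at 77.2% and 62.5% for Prss50. In the knockout libraries it was 47.1% and 69.2% for Rhd and 41.0% and 76.7% for Ermap, and for Cldn13 and Prss50 it rests on at most 10 UMIs. Aqp1 had 54.6%, 55.6%, 33.2% and 52.3% of its UMIs there, Epor and Mfsd2b between 21.9% and 46.6%, and Car2 only 8.75% to 18%. Without copied barcodes the shares were 84.3%, 96.2%, 80.7% and 85.7% for Car1 and 55.8%, 66.9%, 36.6% and 52.6% for Aqp1, and for Rhd they were 88.6% and 97.3% in the control and 0% and 55.6% in the knockout libraries, the last from 5 UMIs.

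By mean level, all 10 genes were highest in the erythroid gate in the control libraries. In the knockout libraries 9 of the 10 genes were highest in the erythroid gate, and Mfsd2b was higher in the megakaryocyte gate. The rank of Prss50 there rests on 1 UMI in each knockout library of the erythroid gate. Its mean was 0.470 ± 0.242 CPM, against 0.306 ± 0.0104 in stem-gated knockout cells, with overlap. Car2, the other carbonic anhydrase gene of the set, had the broadest pattern. Its mean level over the 4 libraries was 683 CPM ± 227 (SD, n = 4) in erythroid-gated, 472 ± 89.8 in megakaryocyte-gated, 323 ± 40.7 in stem-gated, 246 ± 17.2 in ungated, 124 ± 50.9 in lymphoid-gated, 104 ± 18.5 in monocyte- or dendritic-gated and 79.0 ± 9.70 in neutrophil-gated cells. Between the erythroid and megakaryocyte gates the libraries did not overlap in the control (897 and 857 against 364 and 581) but did in the knockout (449 and 528 against 489 and 453). Lymphoid-gated cells lay above monocyte- or dendritic-gated cells in the control (152 and 179 against 95.3 and 132) and overlapped with them in the knockout (67.5 and 96.8 against 93.3 and 95.7). Stem-gated cells (293 to 379) lay above ungated cells (227 to 263) without overlap when copied barcodes were included. When these were left out, the control libraries of the 2 groups overlapped, at 339 ± 64.1 in stem-gated and 289 ± 41.2 in ungated cells (SD, n = 2 each). The knockout libraries were then at 310 ± 24.1 and 217 ± 5.02. Car1 by contrast was at 1128 ± 507 in erythroid-gated cells and at 2.44 in neutrophil-gated, 2.33 in stem-gated, 7.41 in lymphoid-gated and 14.6 in megakaryocyte-gated cells. In ungated cells Car1 was at 40.6, and at 15.0 without copied barcodes. In lymphoid-gated cells it was then at 0 in the control libraries and at 6.39 ± 8.44 in the knockout libraries. The low means varied between libraries, as with copied barcodes Car1 was at 3.95 ± 5.31 in stem-gated and 14.8 ± 16.9 in megakaryocyte-gated knockout cells.

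Mfsd2b, Aqp1 and Epor were shared with the megakaryocyte gate. Mfsd2b, the exporter of sphingosine-1-phosphate from red cells and platelets, was at 47.2 ± 25.0 in erythroid-gated and 50.0 ± 14.0 in megakaryocyte-gated cells. These means join genotypes that differed, since Mfsd2b was at 62.3 and 74.3 against 56.9 and 66.4 in the control, with overlap, and at 23.7 and 28.3 against 39.5 and 37.2 in the knockout, where the megakaryocyte gate was higher. Epor was at 21.4 ± 3.92 and 16.8 ± 11.6, with overlap between the gates in the control (25.8 and 23.6 against 10.5 and 34.1) but not in the knockout (17.3 and 19.1 against 10.0 and 12.6). Aqp1, a water channel that carries the Colton blood group, was at 114 ± 58.7 in erythroid-gated and 41.7 ± 16.5 in megakaryocyte-gated cells, and the erythroid gate was higher without overlap in the control (181 and 136 against 57.5 and 53.8) and in the knockout (41.7 and 99.9 against 24.1 and 31.2). In stem-, neutrophil- and lymphoid-gated and in ungated cells these 3 genes reached at most 8.66 in any library, which was Aqp1 in ungated cells. Rhd, Cldn13, Ermap, Tspo2 and Prss50 reached at most 1.79 CPM in any megakaryocyte-gated library.

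**Figure D1:**
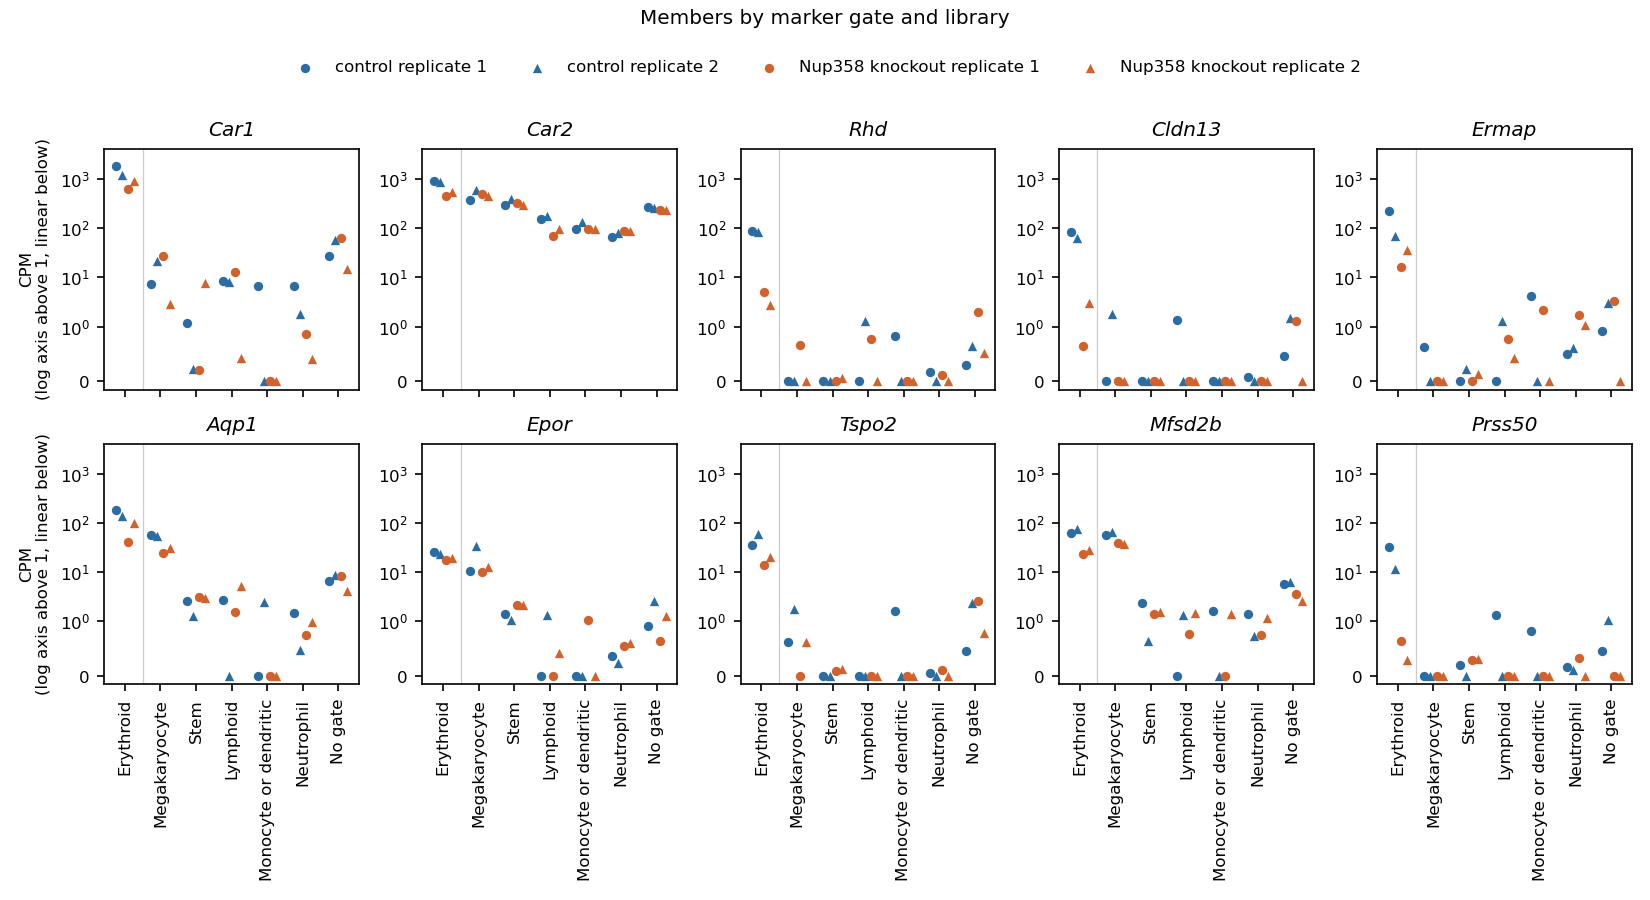
Level of each of the 10 genes by marker-gated cell type, in CPM on an axis that is logarithmic above 1 and linear below; points are the 4 libraries, coloured by genotype. Car2 is present in every gate, the control libraries of Mfsd2b and Epor overlap between the erythroid and megakaryocyte gates, and Rhd, Cldn13, Ermap, Tspo2 and Prss50 reach at most 1.79 in the megakaryocyte gate.

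The genes also differed in how their levels followed the number of erythroid markers in a cell. Cells with at least 3000 UMIs were thinned to 3000 UMIs so that depth was equal, which left 10248, 2058, 313, 74 and 25 cells with 0, 1, 2, 3 and 4 or more markers over all libraries. Car2 was at 173 CPM with 0 markers and at 284, 540, 874 and 1693 in the steps above. Car1 went from 7.51 to 66.3, 580, 1766 and 2800 along the same steps.

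The blood group and claudin genes were at most at 2.92 in cells with 0 or 1 marker. Ermap, the Scianna blood group protein of erythroblasts, was at 0.423, 2.92, 54.3, 212 and 400. Rhd, the Rh antigen, was at 0.0325, 1.13, 24.5, 54.1 and 240, and Cldn13 at 0.0976, 0.486, 11.7, 108 and 240. Mfsd2b levelled off instead, at 2.99, 15.1, 55.4, 58.6 and 40.0, although the last value rests on 3 UMIs. Epor was at 1.30, 5.35, 16, 18 and 40.0, also with 3 UMIs in the last group. The sorted antigen gene Ly6a went the other way, from 230 with 0 markers to 13.3 with 4 or more, while the beta-globin gene Hbb-bs went from 2.31 to 16600. The cells with 4 or more markers came mostly from control replicate 1 (20 cells), with 2, 1 and 2 cells from the other libraries, so the last step describes that library more than the others. Without copied barcodes Rhd was at 20.7 with 2 markers, and Car1 was at 7.08, 67.3, 570, 1766 and 2800 along the steps.

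**Figure D2:**
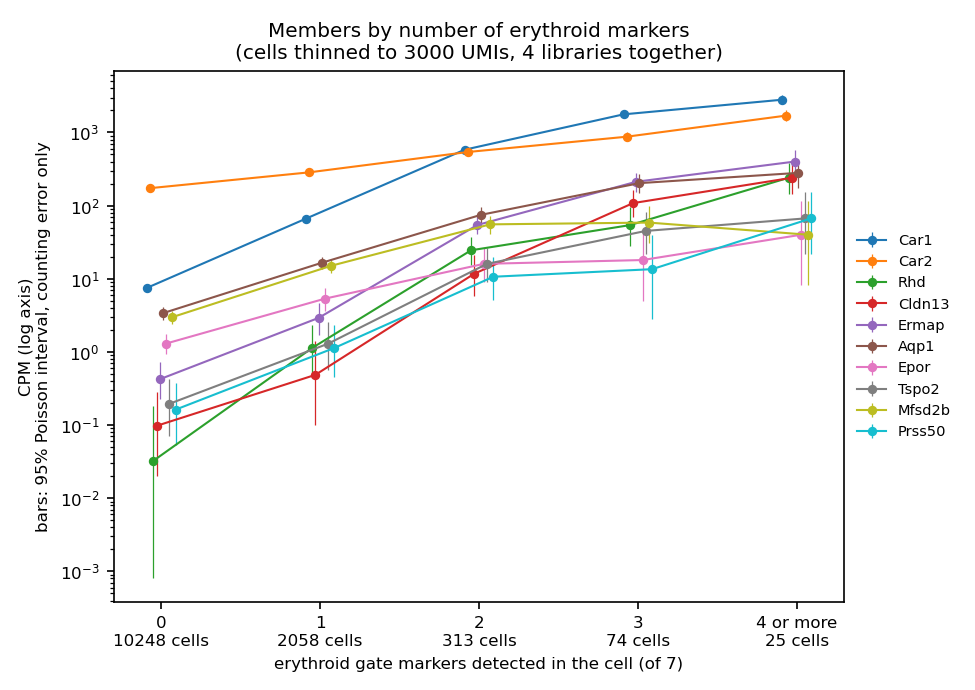
Level of each gene against the number of erythroid gate markers in a cell, in CPM on a log axis, over all 4 libraries after thinning each cell to 3000 UMIs, with bars of 95% Poisson intervals for counting error only. Car1 runs from 7.51 to 2800 and Car2 from 173 to 1693, while Mfsd2b stays between 40.0 and 58.6 from 2 markers on.

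Within the erythroid gate, each of the other genes was found in a larger share of the cells with Car1 than of those without. At 3000 UMIs per cell, with the gate set before thinning, 189 erythroid-gated cells held a Car1 UMI and 292 did not. Ermap was found in 37.6% of the first and 1.71% of the second, Aqp1 in 43.9% and 8.56%, and Cldn13 in 17.5% and 0.342%. Of the 34 cells with a Cldn13 UMI 97.1% held Car1, and of the 30 cells with an Rhd UMI 90.0% did. For Aqp1, Epor, Mfsd2b and Car2 this share was lower, at 76.9%, 70.0%, 63.8% and 42.3%. Car2 was found in 78.8% of the cells with Car1 and in 69.5% of those without, and Mfsd2b in 19.6% and 7.19%. Without copied barcodes 187 cells with Car1 and 284 without were left, with Ermap in 38.0% and 1.76% and Aqp1 in 44.4% and 8.45%. These cells share libraries, and genotype and depth before thinning differ among them, so the shares describe the cells and carry no test.

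Over 31 pairs of gated type and library, the gene whose level was most like the mean of the 10 was Smim1 (r = 0.939, Pearson correlation of log2 values with a pseudocount of 1), which carries the Vel blood group. It was followed by Klf1 (0.895) and Blvrb (0.894), both gate markers, and by Ces2g, Gm15915, Hbb-bs, Abcb4, Samd14 and Pdlim1, the last at 0.826, among 9587 genes. Without copied barcodes Klf1 (0.955) and Smim1 (0.943) led the order. Among the 10 genes, with copied barcodes included, Tspo2 was most like the other 9 (0.936) and Epor (0.750) and Prss50 (0.749) least. Tspo2 stayed highest when copied barcodes were left out (0.903), but Car2 (0.727) and Prss50 (0.747) were then lowest and Epor was at 0.795. The pairs share libraries and a gate that all these genes rise in, and no p is given. Gm15915 stood apart from the set by genotype, at 181 and 202 CPM in the control and 275 and 264 in the knockout libraries of the erythroid gate.

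All 10 genes were lower in both knockout libraries than in both control libraries of the erythroid gate, with and without copied barcodes. Of the genes with at least 10 UMIs in this gate, 19.9% were lower without overlap (19.4% without copied barcodes), and since the contrast may have entered the choice of the genes nothing is read from the count of 10.

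The surface antigen genes Rhd and Cldn13 were almost absent from the knockout libraries of this gate. Rhd was at 84.9 and 83.8 CPM in the control and at 5.13 and 2.69 in the knockout libraries, from 158, 71, 8 and 9 UMIs. Without copied barcodes it was at 84.5 and 92.0 against 0 and 1.5. The controls were close to each other and far above both knockouts, although 5 cells held 91.5% of the Rhd UMIs of control replicate 2. Rhd was called lower in the knockout at a log2 fold change of -4.58 (SE 0.30, adjusted p = 2.96e-05, edgeR quasi-likelihood test with Benjamini-Hochberg adjustment over 9128 genes), and at -6.37 without copied barcodes. Cldn13, which codes for a claudin, was at 81.7 and 62.5 against 0.641 and 2.98, where the knockout values rest on 1 and 10 UMIs. Its log2 fold change was -5.03 (SE 0.36, adjusted p = 4.18e-05). Ermap was at 217 and 69.6 against 16 and 36.4. The control libraries of Ermap differed from each other by more than the lower of them differed from either knockout library, and its log2 fold change was -2.42 (SE 0.41, adjusted p = 0.0147).

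Rhd and Cldn13 in control replicate 2 came from few cells. There the 5 cells with the most UMIs held 91.5% of the Rhd and 96.2% of the Cldn13 UMIs, against 27.2% and 29.6% in control replicate 1. Only 9 cells of control replicate 2 held an Rhd UMI, against 58 in control replicate 1 and 3 and 6 in the knockout libraries. Control replicate 2 also held 4 erythroid-gated cells in which globin genes made up over 1% of the UMIs, and without such cells its Rhd level was 19.9 and its Cldn13 level 11.2. Both genes stayed called without them. Among erythroid-gated cells with a Ly6a or Kit UMI, Rhd was at 59.5 and 22.2 against 2.70 and 1.27.

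Epor, the receptor, had the smallest gap of the 10. It was at 25.8 and 23.6 CPM in the control and 17.3 and 19.1 in the knockout libraries. The libraries did not overlap, but the log2 fold change of Epor was -0.45 (SE 0.26, adjusted p = 0.518) and it was not called. The other genes of the erythropoietin pathway fixed for this comparison (Jak2, Stat5a, Stat5b, Socs3, Cish, Bcl2l1, Pim1, Sh2b3 and Erfe) had 0 of 8 tested genes called, which is near the 1.24% called among all genes of this gate, with a median log2 fold change of -0.05. At an unadjusted edgeR p under 0.05, Pim1 was lower (log2 fold change -0.70, adjusted p = 0.280). In that fit 1177 of 9128 genes had an unadjusted p under 0.05 in either direction, so nothing is read from Pim1. Pim1 codes for a kinase that cytokine receptors induce.

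Among the channel and transporter genes, Mfsd2b was called and Aqp1 was not. Mfsd2b was at 62.3 and 74.3 CPM against 23.7 and 28.3, with a log2 fold change of -1.37 (SE 0.23, adjusted p = 0.0127). Aqp1 was at 181 and 136 against 41.7 and 99.9, where knockout replicate 2 lay nearer to control replicate 2 than to knockout replicate 1, and its log2 fold change was -1.14 (SE 0.30, adjusted p = 0.101). Tspo2 was at 36.0 and 59.0 against 14.1 and 20.0, with a log2 fold change of -1.38 (SE 0.31, adjusted p = 0.0557). In megakaryocyte-gated cells, which were not tested, Mfsd2b was at 56.9 and 66.4 against 39.5 and 37.2 and Aqp1 at 57.5 and 53.8 against 24.1 and 31.2, both without overlap, as were 23.2% of the genes with at least 10 UMIs there in that direction (23.1% without copied barcodes).

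The carbonic anhydrase genes had high counts but smaller gaps. Car1 was at 1802 and 1202 CPM in the control and 628 and 882 in the knockout libraries, with a log2 fold change of -1.01 (SE 0.24, adjusted p = 0.0620). Car2 was at 897 and 857 against 449 and 528, with a log2 fold change of -0.87 (SE 0.19, adjusted p = 0.0525). Neither passed the threshold, although the libraries of the genotypes did not overlap. The share of gated cells with a Car2 UMI was higher in the knockout libraries (84.1% and 81.6% against 87.3% and 93.0%), where the median cell was deeper. After thinning to 3000 UMIs it was 80.4% and 71.9% against 65.0% and 67.5%, with the gate still set before thinning. In neutrophil-gated cells at the same depth 17.0% to 22.9% of cells held a Car2 UMI and at most 0.398% a Car1 UMI. Prss50, a gene of the trypsin-like serine protease family, was at 32.8 and 11.8 against 0.641 and 0.298, from 61, 10, 1 and 1 UMIs. Over the summed libraries Prss50 was 64.4-fold higher in the control (95% interval 17.2 to 542, exact, counting error only), with an adjusted p of 0.00194 by the same edgeR test.

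**Figure D3:**
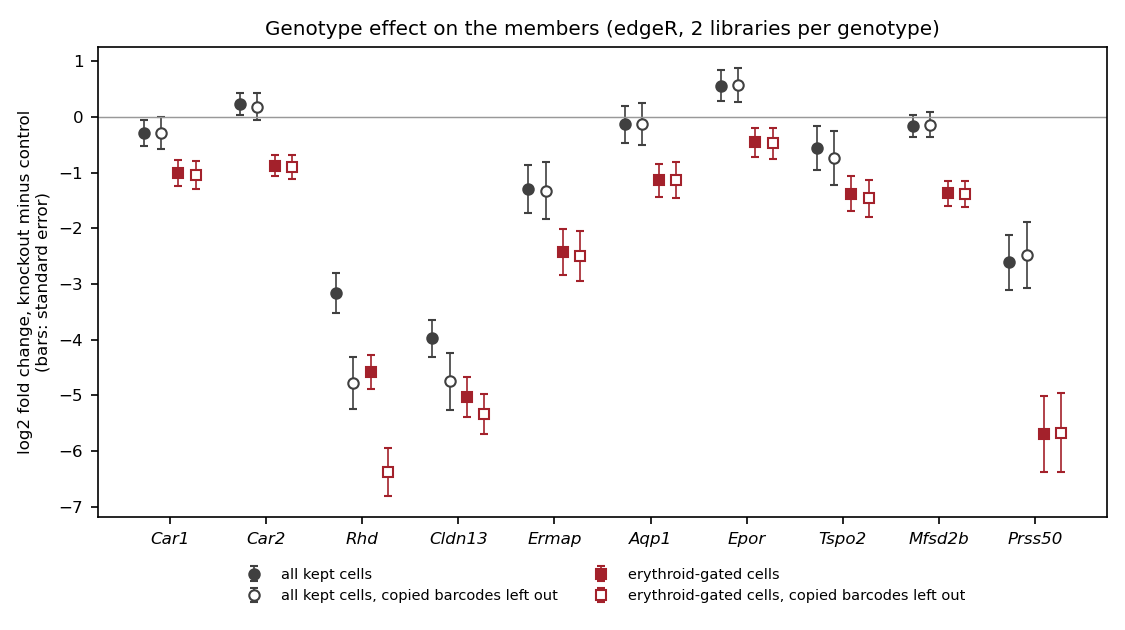
Log2 fold change of each gene, knockout minus control, with bars of 1 standard error, in all kept cells (circles) and erythroid-gated cells (squares), with copied barcodes (filled) and without (open). In erythroid-gated cells the values run from -0.45 for Epor to -5.70 for Prss50, and in all kept cells Car2 and Epor lie above 0.

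In erythroid-gated cells 5 of the 10 genes were thus called, all lower: Rhd, Cldn13, Ermap, Mfsd2b and Prss50. Over all 9128 genes 1.24% were called and 0.986% called lower, and the median log2 fold change was -1.37 for the 10 genes and -0.01 for all genes. Without copied barcodes the same 5 were called, against 1.22% of all genes in either direction and 0.980% lower. Rhd and Cldn13 were called in each of the 14 alternative fits, with adjusted p of at most 0.0038 and 0.0181, and Prss50 in each of the 13 in which it could be tested. Ermap was lost with DESeq2 (adjusted p = 0.302), in cells with a Ly6a or Kit UMI (0.0586) and with the gate set after thinning to 3000 UMIs (0.164), and Mfsd2b with that gate (0.475) and with a gate of at least 3 markers (0.0640). Without control replicate 2, 8 of the 10 were called, Car1, Car2 and Aqp1 among them, against 3.09% of all genes.

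Other values moved with genotype in the same gate. The erythroid gate markers summed to 1356 and 857 CPM in the control and 362 and 401 in the knockout libraries, and 5 of the 7 were called lower (Blvrb, Rhag, Klf1, Sphk1 and Gfi1b). The gated knockout cells were deeper, with median UMIs of 6081 and 5955 against 15233 and 17541. Without copied barcodes the markers summed to 1347 and 798 against 328 and 392, and median UMIs were 6475 and 12300 against 23562 and 18399. Of the gated control cells, 95 of 245 and 45 of 98 held no Ly6a or Kit UMI. Of the knockout cells, 21 of 79 and 23 of 171 held none. Without copied barcodes these were 84 of 232 and 8 of 52 against 6 of 58 and 15 of 160. Markers of mature red cells, of which 8 of 8 were detected in every library, summed to 1686, 20878, 431 and 465, and were thus highest in control replicate 2. Without copied barcodes they summed to 1535, 22910, 110 and 244, with 8, 8, 4 and 6 of the 8 detected. Of 3 plasma cell markers, Jchain was at 0 in both control libraries and at 9.62 and 304 in the knockout libraries. Of 4 markers of mature T or NK cells, Cd3e and Cd3g were at 0 in every library, and Nkg7, at 152, 178, 311 and 265, made up nearly all of the sum. The part of these in the genotype effect was not tested.

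The gap was narrower for some of the genes among cells with the same number of markers and the same depth. These cells are a different set from the erythroid gate. They leave out cells with more markers, in which Car1 and Car2 were higher. Among cells with exactly 2 erythroid markers after thinning to 3000 UMIs, whatever other markers they held, there were 175 and 38 control and 25 and 75 knockout cells. Car1 was then at 638 and 412 CPM against 453 and 573, so that the genotypes overlapped, and the summed control libraries were 1.10-fold above the knockouts. Aqp1 was at 74.3 and 96.5 against 80.0 and 62.2, also with overlap. Car2 was at 545 and 632 against 440 and 516, which did not overlap but differed by 1.13-fold. Without copied barcodes Car1 was at 642 and 451 against 188 and 573, and Car2 at 548 and 676 against 406 and 516. With the erythroid gate itself set after thinning to 3000 UMIs, the gaps of Car1 and Car2 were not narrower. Their edgeR log2 fold changes were -1.09 and -0.99, against -1.01 and -0.87 in the main fit. Aqp1 was at -0.93 against -1.14 and Mfsd2b at -0.77 against -1.37. The part of depth, of marker number and of the cells left out in the narrowing was not tested.

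The surface genes rested on few UMIs in the knockout libraries of these matched cells. Mfsd2b was at 64.8 and 87.7 CPM against 13.3 and 31.1, from 34 and 10 UMIs against 1 and 7, and 2.58-fold higher in the summed control libraries. Cldn13 was at 17.1 and 17.5 from 9 and 2 UMIs in the control libraries and had 0 UMIs in both knockout libraries. Over both knockout libraries 0 UMIs allow up to 3 counts, or 10 CPM, against 17.2 from 11 UMIs in the summed control libraries. That limit leaves out the counting error of the control, so no lower bound on the fold is set. By single library nothing can be said of Cldn13, since 0 UMIs in knockout replicate 1 allow up to 40 CPM. Ermap was at 81.9 and 17.5 against 0 and 26.7, and Rhd at 24.8 and 43.9 against 53.3 and 4.44, both with overlap, where the knockout values of Rhd rest on 4 and 1 UMIs. The 4 Rhd UMIs of knockout replicate 1 came from copied barcodes, since its value without them was 0. A difference in Rhd between matched cells was not tested, and these few UMIs do not decide it in either direction. Epor was at 13.3 and 8.77 against 0 and 31.1, so that the summed knockout libraries were higher (12.5 against 23.3), from 8 and 7 UMIs. Tspo2 was at 11.4 and 52.6 against 26.7 and 4.44, with overlap, and Prss50 at 17.1 and 8.77 with 0 UMIs in both knockout libraries.

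**Figure D4:**
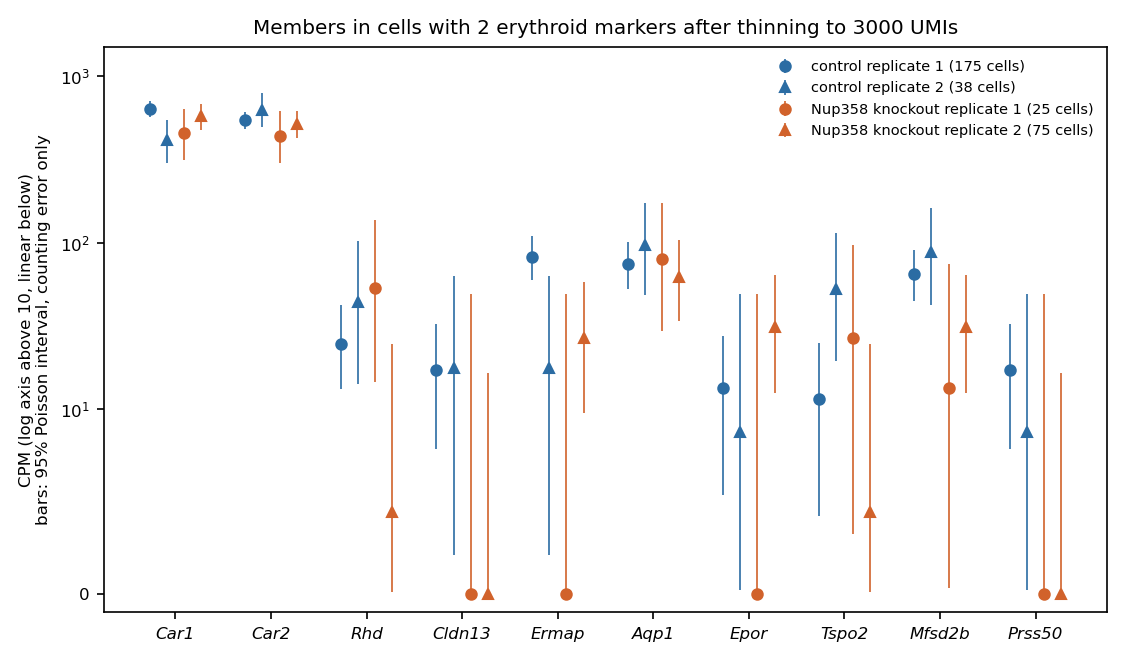
Level of each gene in cells with exactly 2 erythroid markers after thinning to 3000 UMIs, in CPM (logarithmic above 10, linear below), by library, with 95% Poisson intervals that cover counting error only. Car1 and Aqp1 overlap between the genotypes, while both Mfsd2b control values (64.8 and 87.7) lie above both knockout values (13.3 and 31.1). These knockout values rest on 1 and 7 UMIs, and the share of all genes without overlap in these cells was not counted.

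Cells with several of the 10 genes at once made up a smaller share in the knockout libraries. At 3000 UMIs per cell and without copied barcodes, 30.5% and 21.2% of erythroid-gated control cells held UMIs of at least 4 of the 10 genes, against 3.51% and 6.92% of the knockout cells. The gate was set before thinning, so depth at gating was not equal between the genotypes. Median UMIs of the gated cells were 6475 and 12300 in the control and 23562 and 18399 in the knockout libraries without copied barcodes. The part of this in the shares was not tested. The most in a single cell was 8 and 7 genes against 4 and 5. Cells with 0 of the genes made up 12.8% and 13.5% against 22.8% and 20.8%. In megakaryocyte-gated cells no cell held more than 3, and in stem-gated cells no cell more than 2, where Car2 was nearly always the one found.

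**Figure D5:**
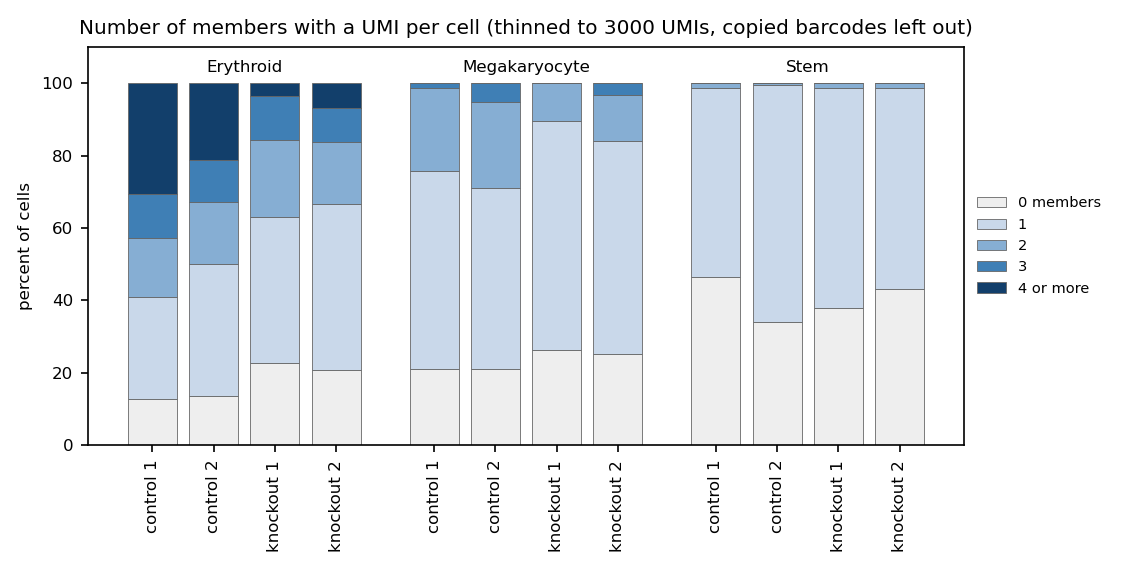
Share of cells by the number of the 10 genes with at least 1 UMI, by gate and library, after thinning to 3000 UMIs and without copied barcodes. Cells were gated before thinning, at depths that differed between the genotypes. The share with 4 or more genes is 30.5% and 21.2% in the control and 3.51% and 6.92% in the knockout libraries of the erythroid gate, and 0% in the megakaryocyte and stem gates.

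Over all kept cells, where fewer erythroid cells and less RNA per cell cannot be told apart, 3 of the 10 genes were called, all lower, against 3.0% of 13844 genes called in either direction and 2.09% called lower. Rhd was at 2.97 and 3.04 CPM in the control and 0.475 and 0.238 in the knockout libraries (log2 fold change -3.16, SE 0.36, edgeR adjusted p = 0.0140). Cldn13 was at 2.71 and 2.44 against 0.140 and 0.183 (log2 fold change -3.98, SE 0.33, adjusted p = 0.00752). Prss50 was at 1.31 and 0.639 against 0.195 and 0.146 (log2 fold change -2.61, adjusted p = 0.0476), and it was not called without copied barcodes (0.0690), without control replicate 1 (0.0858) or without knockout replicate 2 (0.121). Without copied barcodes Rhd and Cldn13 remained, against 3.44% of all genes in either direction and 2.07% lower. Without cells in which globin genes made up over 1% of the UMIs, both stayed called by edgeR but close to the threshold. Rhd then had an SE of 0.61 (adjusted p = 0.0473) and Cldn13 of 0.75 (adjusted p = 0.0462).

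The other 7 genes were not called over all cells. Car2 was at 154 and 230 against 224 and 237, with a log2 fold change of 0.23 (adjusted p = 0.544), and Epor at 1.71 and 2.64 against 2.85 and 3.54, with 0.56 (adjusted p = 0.291), while both lay below the control in the erythroid gate. Without control replicate 2, 6 of the 10 were called, Car2 and Epor higher and Ermap, Rhd, Cldn13 and Prss50 lower, but 16.3% of all genes were called in that fit. Car1 was at 67.5 and 53.9 against 38.2 and 63.5 and Aqp1 at 10.2 and 8.27 against 5.47 and 11.7, both with overlap.

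Erythroid-gated cells made up 2.66% and 1.44% of the control and 1.66% and 4.04% of the knockout libraries. The mean was 2.05% ± 0.863 in the control and 2.85% ± 1.68 in the knockout (SD, n = 2 each), a difference of 0.798 percentage points with an exact two-sided permutation p of 0.667, where 0.333 is the smallest that 2 against 2 libraries can give. Median UMIs per kept cell were 5333 and 1036 in the control and 1090 and 12026 in the knockout libraries, and the shares followed the same order. With the gate set after thinning to 3000 UMIs the difference turned to -0.775 percentage points, and to -0.848 without copied barcodes. The exact permutation p was 0.333 in both cases, so both knockout libraries lay below both control libraries. The part of depth in the shares was not tested. Without knockout replicate 2 the difference of the main gate turned to -0.390. Without copied barcodes the shares were 2.96% and 4.33% against 3.65% and 4.68%, a difference of 0.515 percentage points (exact permutation p = 0.667), which was 0.00195 without knockout replicate 2 and -0.170 without control replicate 1. In ungated cells 0 of the 6 genes that could be tested were called by edgeR or DESeq2, against 0.00928% of 10772 genes, or 535 genes at an unadjusted p under 0.05, and without copied barcodes 0 of the 2 that could then be tested (Car1 and Car2) were called by edgeR, against 1.65%. The largest change there was for Mfsd2b, with a log2 fold change of -0.90 (SE 0.40, edgeR adjusted p = 0.878).

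The other erythroid lists gave the setting of the 10 genes in the erythroid gate. Of 9 heme enzymes 5 were called lower, with a median log2 fold change of -1.25 over the list, among them Alas2, the first enzyme of erythroid heme synthesis (-5.45), and Ppox (-1.69). Of 16 genes of the red cell membrane and iron uptake, 14 were tested and 8 called lower, with a median of -1.93. Among those called were Rhag, the partner of the Rh antigen (-2.34), and the transferrin receptor Tfrc (-1.19). Rhag and Icam4 of this list are also gate markers. Of 4 tested globin genes 3 were called lower, at a median of -5.44 that became -11.46 without copied barcodes, where Hba-a2 was at 0 in both knockout libraries and the fitted value sets no bound. The globins summed to 1621 and 20597 CPM in the control and 410 and 437 in the knockout libraries, so the controls differed widely from each other. Of 12 regulators only Klf1 (-1.38) and Gfi1b (-1.13) were called, both of them gate markers, at a median of -0.29, and Gata1 was at -0.70 (edgeR adjusted p = 0.101), Gata2 at 0.06 and Nfe2 at 0.42. Of the 13 other carbonic anhydrase genes 3 could be tested and 0 were called (1.24% of all genes were), at a median of 0.18. No gene of these lists was called higher, and the counts were the same without copied barcodes, with medians of -1.29 for heme enzymes and -2.10 for membrane and iron genes.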

How the data were processed

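The authors aligned reads to GRCm38 (mm10) and counted UMIs per gene and barcode with Cell Ranger 3.1 in each library, and deposited whole-number counts without normalization. The genes, gates and lists were chosen with earlier results of these data known. Counts were summed per library over all kept cells, erythroid-gated and ungated cells (Python 3.11.15) and tested with edgeR 4.0.16 (filterByExpr, TMM, quasi-likelihood test, Benjamini-Hochberg, 0.05). The paper names DESeq2, which was an alternative (1.42.0), as were relative log expression factors, all genes without a count filter, a block on replicate numbers, leaving out each library or the copied barcodes, and other gates. Gates with fewer than 20 cells in a library were left out, ties belonged to no gate and doublets were not removed. Named are the 10 genes, genes of the lists and the 10 most like the set by correlation, of which 1 is not reported here. Positions are from the GENCODE annotation of GRCm38. On simulated counts for erythroid-gated cells, 60.4% of genes changed by a log2 fold of 1 were found, 96.8% of those changed by 2, and 5.70% of calls were false. These counts were drawn independently for each gene with the dispersion trend of the fit itself. They thus meet the assumptions of the test and do not measure false calls in the real libraries. Intervals and limits cover counting error only.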

Additional observations from a re-analysis of the deposited data

Results flagged for a closer look

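A set of results was picked out because every knockout library of the erythroid gate lay below the controls while every knockout library of another gate lay above them. The difference between the gates was not tested, and with 2 libraries per genotype such patterns also arise by chance. The share of all genes with such a pattern was not counted, so nothing is read from it for these genes. Values are the mean of the knockout minus that of the control libraries, in CPM. For Car2 it was 14.0 in neutrophil-gated cells (65.5 and 78.4 in the control, 85.1 and 86.9 in the knockout) and -388 in erythroid-gated cells. For Ermap it was 0.860 in neutrophil-gated cells, on levels of 0.508 and 0.605 against 1.74 and 1.10, and -117 in erythroid-gated cells. For Aqp1 it was 1.07 in stem-gated cells and -87.3 in erythroid-gated cells. For Epor it was 0.266 in neutrophil-gated, 0.919 in stem-gated and -6.49 in erythroid-gated cells. The neutrophil values rest on 50 UMIs for Ermap and 26 for Epor over all libraries, with as few as 5 and 2 in a library.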

How the results depend on the processing

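In erythroid-gated cells, 115 results for single genes of the set kept direction and side of the threshold under the alternatives, 19 gained a call, 5 lost one and 0 turned. The number of genes called, 113, became 71 with DESeq2, 407 without a filter on low counts, 30 with the gate set after thinning to 3000 UMIs and 50 in cells with a Ly6a or Kit UMI, and the number of the 10 genes called, 5, became 9 without the filter and 3 with the thinned gate. Leaving out each library gave 105 to 297 genes and 5 to 8 of the 10, with 297 and 8 without control replicate 2 and 218 genes without control replicate 1. The gates on thinned depth, globin and sorted receptors were chosen after seeing the data. The cause of these changes was not tested, although the thinned and receptor gates hold fewer cells.

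Over all kept cells, the 415 genes called became 961 with DESeq2 and 2076 without the filter, and 324 to 2353 with a library left out (1146 without control replicate 1, 2353 without control replicate 2), with 2 to 6 of the 10. Of the single genes 86 results held, 6 gained and 3 lost a call and 5 turned. With a library left out, log2 fold changes ran from -0.0501 to 0.56 for Car2, -0.79 to 0.31 for Aqp1, -0.70 to 0.0345 for Car1 and -0.43 to 0.0456 for Mfsd2b, with Car2 and Aqp1 turning without control replicate 1 (-0.0501 and 0.0258) and Car1, Aqp1 and Mfsd2b without knockout replicate 1 (0.0345, 0.31 and 0.0456).

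In ungated cells, the 1 gene called became 165 without copied barcodes, 136 without the filter and 881 with the gate set after thinning to 1000 UMIs, and 15 to 1800 with a library left out (1800 without control replicate 2). Of the 10 genes, 1 was called after thinning to 1000 UMIs and 1 without knockout replicate 1, and 0 to 1 over the libraries left out. Of the single genes 44 results held, 1 gained a call and 9 turned. Car1 turned without copied barcodes (0.76), and Car2 (0.0251) and Tspo2 (-0.32) after thinning to 1000 UMIs. With a library left out, log2 fold changes ran from -1.44 to 0.63 for Car1, -6.24 to 0.83 for Ermap, -0.68 to 1.01 for Tspo2 and -0.79 to 0.21 for Aqp1, where Car1 was 0.55 and Ermap 0.75 without control replicate 2.

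The difference in the share of erythroid-gated cells ran from -0.390 to 1.99 percentage points with a library left out. It was -0.421 after thinning to 1000 UMIs and -0.775 after thinning to 3000 (exact permutation p = 0.333 each). Without copied barcodes these differences were -0.720 and -0.848, with the same p. The summed level of the 10 genes over the libraries moved after thinning to 1000 UMIs from 85.1 to 68.8 CPM in neutrophil-gated, 332 to 407 in stem-gated and 305 to 355 in ungated cells. Without thinning, cells with 1, 2 and 3 erythroid markers were at 207, 344 and 673 instead of 395, 1383 and 3351. The erythroid gate after thinning to 1000 UMIs left fewer than 20 cells in each knockout library, and its test was not run.

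The replicate numbers are shared between the genotypes, but nothing pairs the libraries, and with the number as a block 980 genes were called over all cells, 170 in erythroid-gated and 145 in ungated cells, with 3, 7 and 0 of the 10. Same-numbered libraries deviated with a correlation of 0.00286 over all cells, -0.107 in erythroid-gated and 0.139 in ungated cells, and the crossed replicate block, added after seeing the data, called 502 genes and 9 of the 10 in erythroid-gated cells. With 25 to 175 matched cells per library, genes such as Rhd, Cldn13 and Prss50 gave at most 13 UMIs per library, which limits what can be said of them.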
